A study of Homo sapiens with 2 samples.

Results

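GPNMB, NEU1, NPC1, CTSD, SQSTM1 and ATG9B are genes of the lysosome and of autophagy, and their transcript levels were compared between ebastine-treated and vehicle-treated C4-2 cells. They were chosen by name, 6 of the 1947 genes in the deposited table, with their ratios in this comparison already known. Their ratios are therefore given as a description, and no test was made of them. C4-2 is an established human prostate cancer line derived from LNCaP, and both cultures were at passage 10 to 15 in RPMI medium with fetal bovine serum. The ebastine group, given an antihistamine that blocks the H1 receptor, held 1 library of polyadenylated RNA. The vehicle group, given fresh medium with vehicle after the same replating, also held 1 library. The series title presents EZH2, a histone methyltransferase, as what ebastine acts on. Neither the dose nor the exposure time is given in the sources used here. Without replicates no ratio below has an error, and each is a difference between 2 libraries. In bulk RNA, fewer cells of a type and less RNA per cell cannot be told apart.

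The lysosome is the acidic compartment in which hydrolases break down proteins, lipids and glycans that arrive by endocytosis or by autophagy. In autophagy a membrane closes around cytoplasm or a damaged organelle and then fuses with the lysosome. Many of these genes share an E-box motif near their start, and the MiT/TFE transcription factors (MITF, TFEB, TFE3 and TFEC) are known to bind such motifs.

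Of the 6 genes, 5 were higher with ebastine and 1 was lower. GPNMB, a glycoprotein of melanosomes and lysosomes, differed the most, at 6.48-fold. NEU1, NPC1, SQSTM1 and CTSD were between 1.60-fold and 1.95-fold higher. ATG9B, a membrane protein of autophagy, was 1.36-fold lower, and a different gene reported at the same locus was higher.

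Promoter sequence was examined because MiT/TFE motifs have been described in this gene class. All 6 genes matched the RefSeq promoter table (build GRCh38.p14), and the 250 bases before each listed gene start were searched on both strands. The motifs were the E-box CACGTG, its extended form TCACGTG, the related CACATG, and the longer TCACATGA that holds CACATG within it. Of the 6 genes, 3 had a match. The share of all windows holding any of these motifs was not taken, so nothing is read from that count. The windows of the 3 genes follow, 5′ to 3′ on the strand of the gene. Matched letters are in capitals and all other bases in lower case. GPNMB lies on the plus strand (chr7:23246525-23246774), NEU1 on the minus strand (chr6:31862822-31863071) and CTSD on the minus strand (chr11:1763928-1764177).
GPNMB: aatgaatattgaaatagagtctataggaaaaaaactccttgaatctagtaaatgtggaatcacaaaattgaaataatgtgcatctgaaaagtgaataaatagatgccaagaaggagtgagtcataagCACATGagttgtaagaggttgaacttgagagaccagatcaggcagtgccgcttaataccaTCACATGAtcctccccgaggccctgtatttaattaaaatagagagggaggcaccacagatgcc
NEU1: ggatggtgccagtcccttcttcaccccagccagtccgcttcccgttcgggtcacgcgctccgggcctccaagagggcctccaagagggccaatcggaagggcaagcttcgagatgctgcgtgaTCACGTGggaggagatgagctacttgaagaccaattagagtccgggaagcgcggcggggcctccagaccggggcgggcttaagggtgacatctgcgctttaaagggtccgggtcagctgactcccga
CTSD: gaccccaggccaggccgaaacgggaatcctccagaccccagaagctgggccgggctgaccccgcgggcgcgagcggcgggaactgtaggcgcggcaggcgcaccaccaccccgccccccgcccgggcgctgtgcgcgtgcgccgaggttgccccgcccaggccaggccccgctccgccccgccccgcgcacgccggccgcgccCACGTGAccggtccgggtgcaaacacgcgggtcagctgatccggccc

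The GPNMB window held CACATG at 2 places, and the one nearer to the gene start was part of TCACATGA, which began 63 bases before the start. TCACATGA is the form of E-box known as the M-box in pigment cell genes bound by MITF. It occurred in 0.851% of all 35116 promoter windows of the same length, and CACATG in 9.42%. NEU1 held TCACGTG beginning 127 bases before its start. CTSD held the same motif on the opposite strand, read as CACGTGA on the strand of the gene, beginning 47 bases before the start. TCACGTG occurred in 3.31% of all windows and CACGTG in 6.34%. No match to the 4 motifs lay in the single window of NPC1, the 3 windows of SQSTM1 or the 2 overlapping windows of ATG9B, which says only that these letters are not in those windows. A match is a description of the letters and was not tested for binding. Only 42 of the 61 listed genes of the lysosome and autophagy lists matched the promoter table (68.9%, under the 80% set as a minimum), so a comparison of motif shares across the lists would be void and is not given.

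Levels are in FPKM, fragments per kilobase of transcript scaled to mapped fragments, as estimated and scaled by the authors' Cuffdiff. This scale corrects for transcript length, so levels of different genes can be ordered. GPNMB stood at 24.9 FPKM in the ebastine library and 3.004 FPKM in the vehicle library. With ebastine it was the fourth of the 6 genes, close to NEU1, and with vehicle it was the lowest of them. Ratios are log2((ebastine + 1)/(vehicle + 1)), with a pseudocount of 1 FPKM that understates the difference of low genes. The GPNMB ratio was 2.70 on the log2 scale, and without the pseudocount the levels differed 8.30-fold. Among the 1768 listed genes that averaged 1 FPKM or more over both libraries it had the second highest ratio. The q-value of GPNMB was 0.00178 in the authors' deposited table. The reported locus (hg19, chromosome 7, 23286316 to 23314729) spans 28.4 kb, against 28.3 kb for the RefSeq gene, and no other listed gene overlaps it.

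**Figure D1:**
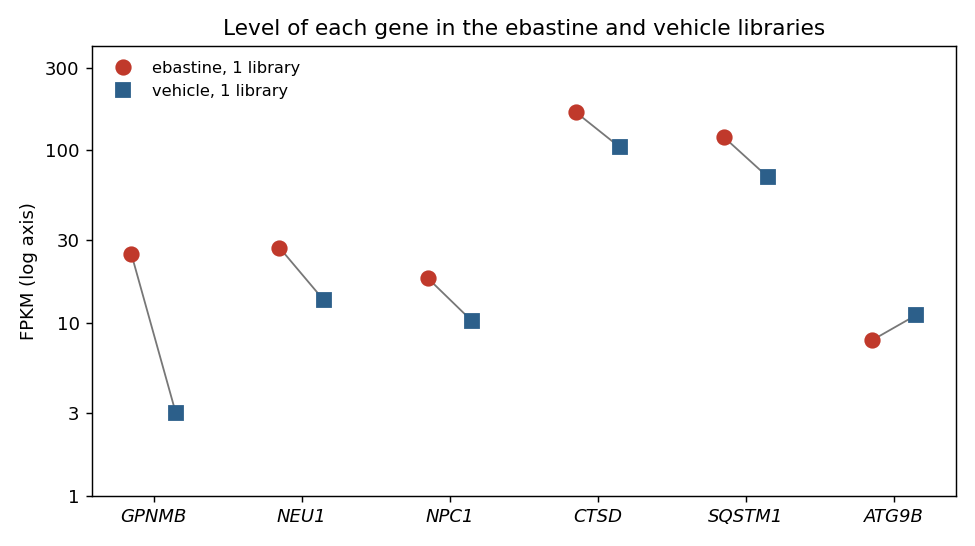
Level of each of the 6 genes in FPKM (log axis) in the ebastine library (circles) and the vehicle library (squares), 1 library each and no error bars. GPNMB has the steepest line, with its ebastine point at 24.9 FPKM and its vehicle point at 3.004 FPKM, and ATG9B is the 1 gene with the ebastine point below the vehicle point.

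GPNMB is also known as a gene of melanocytes and macrophages, so markers of those cells were looked up. Of 9 melanocyte markers 1 was in the table, the transporter SLC45A2, at 0.761 FPKM with ebastine and 0.328 FPKM with vehicle, and of 12 macrophage and leukocyte markers none was. The table holds only genes past the authors' p-value limit, so the levels of the other markers are not known here, and their part in the GPNMB difference was not tested. Of 10 prostate luminal markers 5 were listed, with KLK3, the gene of prostate-specific antigen, at 1599 FPKM with ebastine and 2476 FPKM with vehicle. KLK2, a related kallikrein, and the protease TMPRSS2 were also lower with ebastine, whereas the membrane peptidase FOLH1 and the metalloreductase STEAP2 were higher, so the luminal markers went both ways.

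NEU1 is the lysosomal sialidase, which removes sialic acid from glycoproteins and glycolipids. It stood at 27.2 FPKM with ebastine and 13.5 FPKM with vehicle, a log2 ratio of 0.96. In the authors' deposited table its q-value was 0.00178. The reported locus lies on an alternative haplotype of chromosome 6 (ssto_hap7, 3159577 to 3163457, hg19). Reads of a gene with copies on several haplotype sequences can be split between them, and how the authors treated such reads is not given in the sources used here.

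CTSD encodes cathepsin D, an aspartic protease of the lysosome. Per kilobase it was the most abundant of the 6 genes in both libraries, at 166 FPKM with ebastine and 103 FPKM with vehicle, a log2 ratio of 0.68. The q-value of CTSD was 0.00178 in the authors' deposited table. Its reported locus (hg19, chromosome 11, 1490685 to 1785501) spans 295 kb, against 11.2 kb for the RefSeq gene. The span does not give the region counted, and whether reads from neighbouring genes are in the value is not known.

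NPC1 is a membrane protein that moves cholesterol out of the lysosome. It stood at 18.2 FPKM with ebastine and 10.2 FPKM with vehicle, a log2 ratio of 0.77. In the authors' deposited table its q-value was 0.00466. The reported locus (hg19, chromosome 18, 21083434 to 21166581) spans 83.1 kb, close to the 80.3 kb of the RefSeq gene. That gene overlaps the gene RMC1, so reads from RMC1 may be included in the value.

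SQSTM1 encodes p62, a receptor that binds ubiquitinated cargo and brings it to the forming autophagosome, and that is itself degraded by autophagy. It stood at 119 FPKM with ebastine and 69.5 FPKM with vehicle, a log2 ratio of 0.77, which was almost equal to that of NPC1 at a level several times higher. The q-value of SQSTM1 was 0.00466 in the authors' deposited table. Its reported locus (hg19, chromosome 5, 179224598 to 179285840) spans 61.2 kb, against 31.7 kb for the RefSeq gene. As for CTSD, whether reads from neighbouring genes are included is not known. The RefSeq gene overlaps MGAT4B and MRNIP. Neither of those is a listed gene.

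ATG9B is a homologue of ATG9A, the multispanning membrane protein that supplies lipid to the forming autophagosome. It stood at 7.92 FPKM with ebastine and 11.1 FPKM with vehicle, a log2 ratio of -0.44. This was the smallest difference of the 6, and 31.6% of the 1768 genes had a lower ratio. In the authors' deposited table its q-value was 0.175, the only one of the 6 above 0.05. ATG9B was the lowest of the 6 genes with ebastine and the third lowest with vehicle.

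The ATG9B value shares its locus with another listed gene. The authors' table reports ATG9B and NOS3, the endothelial nitric oxide synthase, at the same span of chromosome 7 (150688144 to 150721586, hg19). In RefSeq the genes overlap on opposite strands, ATG9B on the minus strand and NOS3 on the plus strand. NOS3 stood at 6.58 FPKM with ebastine and 2.28 FPKM with vehicle, a log2 ratio of 1.21, the opposite direction to ATG9B. The q-value of NOS3 was 0.00178 in the authors' deposited table. Without a stated strand setting, reads from the overlap cannot be assigned to one gene or the other, and both values are uncertain. NOS3 was chosen after its values were seen.

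**Figure D2:**
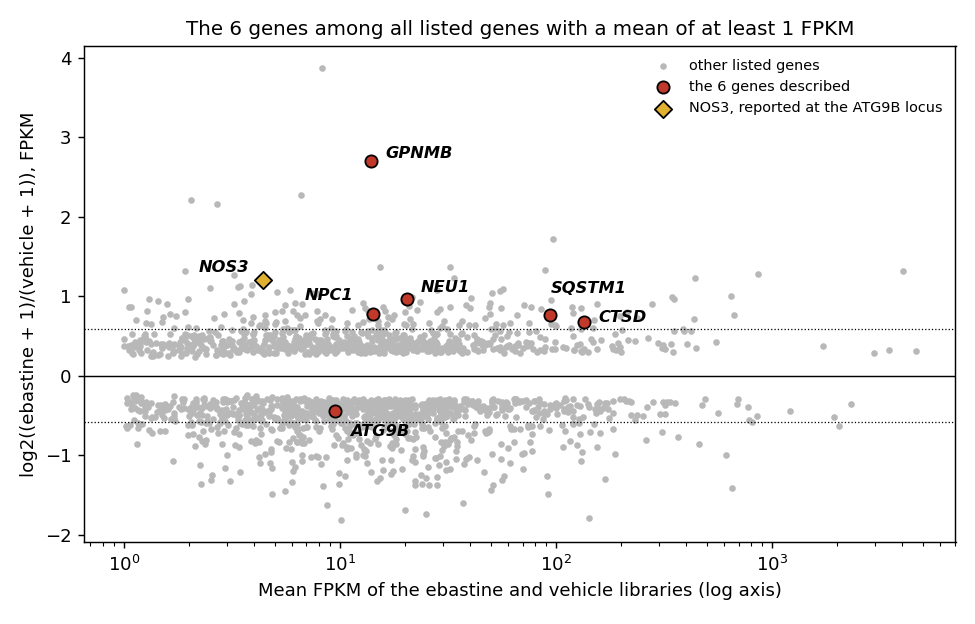
log2 ratio of ebastine over vehicle (with a pseudocount of 1 FPKM) against the mean FPKM of both libraries (log axis) for the 1768 listed genes averaging 1 FPKM or more. Dotted lines mark 1.5-fold, the empty band around 0 is left by the authors' p-value limit, GPNMB lies at 2.70 apart from most genes of its level, and NOS3 and ATG9B, reported at 1 locus, lie at 1.21 and -0.44.

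Counted at a limit of 1.5-fold, 5 of the 6 genes were higher and none was lower, beside 9.67% of the 1768 listed genes at least 1.5-fold higher and 18.6% at least 1.5-fold lower. The genes were chosen on these same ratios, so nothing is read from that count. The median of all 1768 ratios was -0.32. Centring, as named below, divided out the median of genes averaging 10 FPKM or more, a shift of 0.34 on the log2 scale. The p-value limit leaves out genes that differ little, so this median does not measure an offset between the libraries. The same shift is added to every ratio, so the order of genes cannot change. After it GPNMB was at 3.03, NEU1 at 1.30, NPC1 at 1.11, SQSTM1 at 1.10, CTSD at 1.01 and ATG9B at -0.10. NOS3 was at 1.55 after centring.

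**Figure D3:**
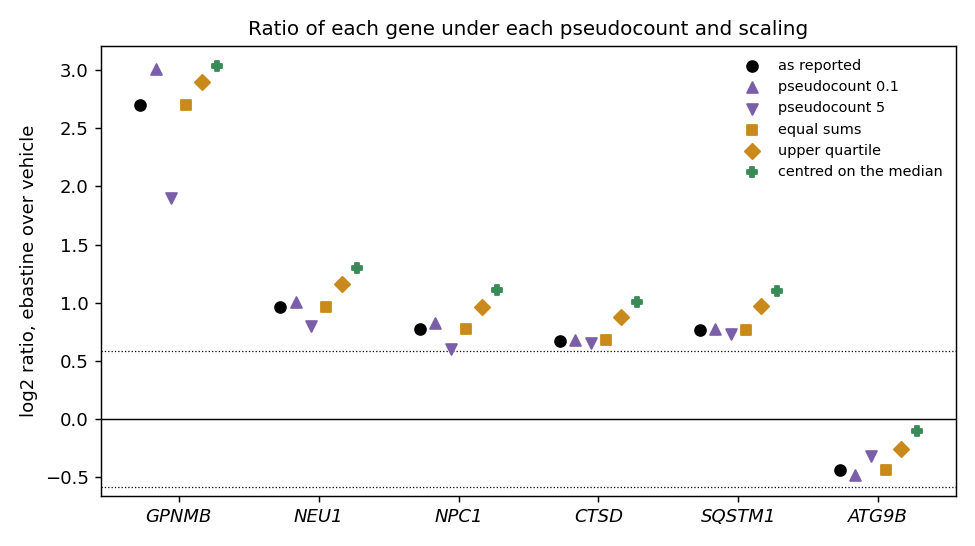
log2 ratio of ebastine over vehicle for each of the 6 genes with the reported setting and with 5 other pseudocounts or scalings; dotted lines mark 1.5-fold. The first 5 genes stay above the upper line in every setting drawn. The scalings raise every ratio, so only the larger pseudocount could have lowered these genes. GPNMB moves between 1.90 and 3.03 with the setting, and ATG9B stays between the lower line and 0.

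Likeness to other genes was measured as the smallest difference in log2 ratio among listed genes whose mean FPKM was within 2-fold, and it rests on 2 libraries. GPNMB had no close neighbour. The nearest of 660 genes was LENEP, at 3.87. LENEP stood at 16.3 FPKM with ebastine and only 0.183 FPKM with vehicle, so its ratio rests on a very low vehicle value. In the authors' deposited table the q-value of LENEP was 0.305. NEU1 was nearest to LSS, the lanosterol synthase, and to PCSK1N, an inhibitor of prohormone processing, with differences of 0.017 and 0.032. NPC1 was nearest to TP53INP1 and TMEM144. CTSD was nearest to CYP51A1, a sterol demethylase, and PRUNE2. SQSTM1 was nearest to LRBA and SERINC5, and ATG9B to SUV39H2, a histone H3K9 methyltransferase, and CEP192, a centrosome protein.

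The 6 genes were then set among 238 genes on 10 lists of lysosome and autophagy roles. The lists too were chosen with earlier results of these data known, so counts without the 6 genes are not free of that choice. Of these 238, 61 were in the table (25.6%). The table holds 14.2% of the 13714 genes that the authors' q-values imply were tested, but how many of the 238 were tested is unknown and the shares cannot be compared directly. Of the 59 listed genes averaging 1 FPKM or more, 53 were higher with ebastine and 6 lower, beside 43% higher and 57% lower among all 1768. Their median log2 ratio was 0.40, against -0.32 over all 1768 genes. At least 1.5-fold higher were 12 of the 59 (20.3%), and 3 were at least 1.5-fold lower (5.08%), beside 9.67% and 18.6% of all 1768. Of the 12, 5 are genes chosen on these ratios. Without the 6 genes 48 of 53 were higher and 5 lower, with a median of 0.40. Past 1.5-fold higher were then 7 of the 53 (13.2%), near the 9.67% of all listed genes, and 3 were past 1.5-fold lower (5.66%). After upper quartile rescaling 33 of the 59 were past 1.5-fold higher and 1 lower, beside 24.4% and 10.4% of all 1768. After centring the counts were 53 and 0, beside 42.8% and 6.11%. The p-value limit leaves no small ratios in the table, and the lowest of the 53 higher ratios, 0.29 for PLEKHM1, becomes 0.62 with the shift, so all 53 pass the limit of 0.58 by construction. Past a q-value of 0.05 in the authors' deposited table, 25 of the 59 were higher and 4 were lower, beside 15.2% and 27% of the 1768 genes. The values nearest the limit were those of ATP6V0A1 and IGF2R just inside it, at 0.587 and 0.592, and of STBD1 and RILP just outside it, at 0.573 and 0.567.

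**Figure D4:**
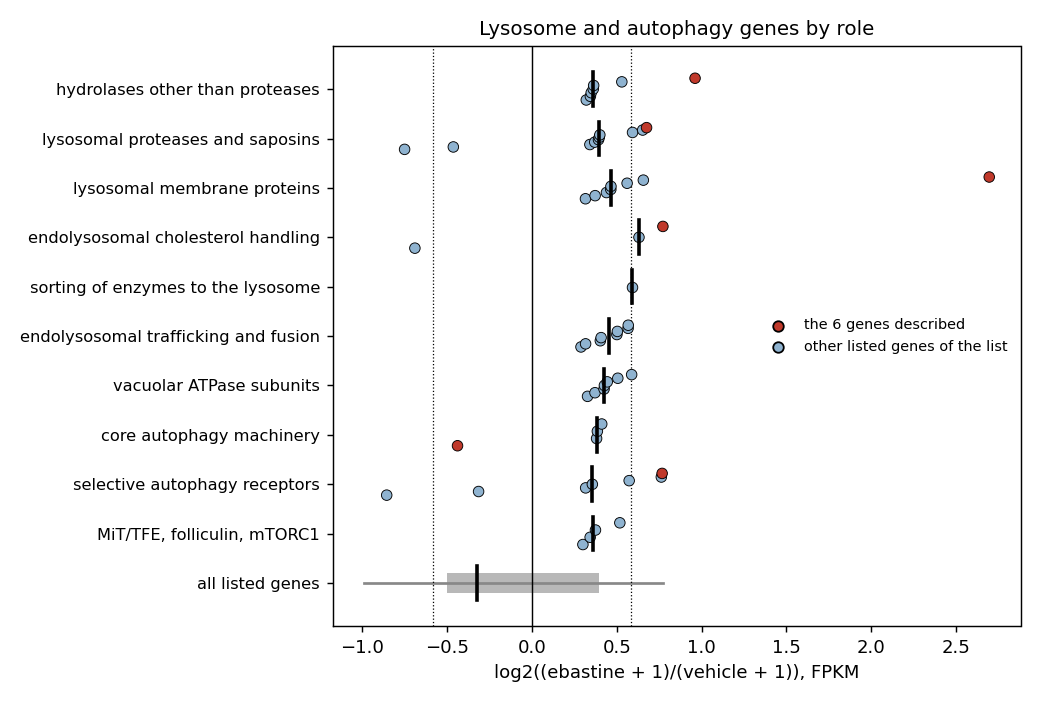
log2 ratio of ebastine over vehicle for the 59 listed lysosome and autophagy genes averaging 1 FPKM or more, in rows by role, with the list's median as a black bar; the bottom row gives the median, the quartiles (box) and the 5th to 95th percentiles (line) of all 1768 listed genes. Most points sit to the right of 0, and the 6 to its left are CTSL2, CTSC, OSBPL8, ATG9B, BNIP3L and BNIP3.

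Each list below is to be read beside all 1768 genes, of which 43% were higher and 57% lower. At least 1.5-fold higher and lower were 9.67% and 18.6% of them. Lysosomal hydrolases other than proteases were represented by 7 of 36 genes, all higher, with a median of 0.36. NEU1 was the 1 member past 1.5-fold (14.3%), near the share of all listed genes, and it was chosen on its ratio. SMPD1, the acid sphingomyelinase, stood at 19.1 FPKM with ebastine and 14.7 FPKM with vehicle. ASAH1, the acid ceramidase, stood at 60.9 FPKM with ebastine and 48.6 FPKM with vehicle. HEXA, a subunit of beta-hexosaminidase, and the mannosidases MAN2B1 and MANBA had log2 ratios of 0.35, 0.34 and 0.36. An eighth gene, the acid phosphatase ACP5, was under the minimum mean, at 0.590 FPKM with ebastine and 0.177 FPKM with vehicle, and was chosen after its values were seen.

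Proteases and saposins held 10 listed genes of 19. Of the 10, 8 were higher and 2 were lower, and the median was 0.39. Beside CTSD, the peptidase TPP1 stood at 27.0 FPKM with ebastine and 16.8 FPKM with vehicle. PSAP, the precursor of the saposins that help enzymes act on lipids, stood at 464 FPKM with ebastine and 307 FPKM with vehicle. These 3 were past 1.5-fold. The legumain gene LGMN, the carboxypeptidase SCPEP1 and the cathepsin CTSH had log2 ratios of 0.40, 0.40 and 0.34. The cathepsins did not all lie on one side. CTSL2, also called cathepsin V, stood at 4.57 FPKM with ebastine and 8.38 FPKM with vehicle, a log2 ratio of -0.75. CTSC, a dipeptidyl peptidase that activates serine proteases, stood at 24.5 FPKM with ebastine and 34.2 FPKM with vehicle. Both stayed lower after each rescaling tried.

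Lysosomal membrane proteins held 8 listed genes of 30 that averaged 1 FPKM or more, all higher, with a median of 0.46. After GPNMB came SIDT2, a lysosomal membrane protein linked to uptake of nucleic acids, at 20.5 FPKM with ebastine and 12.6 FPKM with vehicle. The tetraspanin CD63 stood at 465 FPKM with ebastine and 315 FPKM with vehicle, which per kilobase was the highest of this list in both libraries. The main membrane glycoproteins of lysosomes differed less. LAMP1 stood at 64.4 FPKM with ebastine and 46.4 FPKM with vehicle, and LAMP2 had a log2 ratio of 0.37. The acetyltransferase HGSNAT, the chloride transporter CLCN7 and the phosphatase TMEM55B had log2 ratios of 0.47, 0.44 and 0.32. LAMP3, a lysosomal protein first known from dendritic cells, stood at 1.47 FPKM with ebastine and 0.355 FPKM with vehicle. It was under the minimum mean, and it was chosen after its values were seen.

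Of the listed genes of cholesterol handling, NPC1 and NPC2 were higher and OSBPL8 was lower. NPC2, the soluble protein that passes cholesterol to NPC1, stood at 121 FPKM with ebastine and 77.9 FPKM with vehicle, a log2 ratio of 0.63 beside 0.77 for NPC1. OSBPL8, an oxysterol-binding protein of the endoplasmic reticulum, stood at 13.6 FPKM with ebastine and 22.6 FPKM with vehicle, a log2 ratio of -0.69. These 3 of 12 genes were listed, and the q-values of all 3 lay under 0.05 in the authors' deposited table. Among 10 genes that sort enzymes to the lysosome only IGF2R, a mannose 6-phosphate receptor, was listed, at 26.1 FPKM with ebastine and 17.0 FPKM with vehicle.

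Genes of endolysosomal trafficking held 8 listed of 20, all higher and none past 1.5-fold, with a median of 0.45. RILP, which links late endosomes to dynein, stood at 12.8 FPKM with ebastine and 8.32 FPKM with vehicle. The SNARE VAMP8, which takes part in fusion of autophagosomes with lysosomes, stood at 65.9 FPKM with ebastine and 44.2 FPKM with vehicle. The tethering subunits VPS18, VPS41 and VPS11 had log2 ratios of 0.50, 0.50 and 0.41. The small GTPase RAB7A and the adaptor PLEKHM1 had ratios of 0.32 and 0.29. All 7 listed subunits of the vacuolar ATPase, the proton pump that acidifies the lysosome, were higher, with a median of 0.43 and the highest ratio, 0.59, in ATP6V0A1.

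Core autophagy genes were mostly outside the table. Of 44, 4 were listed, and ATG9B was the 1 that was lower. The other 3 belong to the ubiquitin-like family that is joined to autophagosome membranes. GABARAP stood at 353 FPKM with ebastine and 271 FPKM with vehicle. GABARAPL1 and MAP1LC3B had log2 ratios of 0.41 and 0.38. No q-value of the 4 lay under 0.05 in the authors' deposited table, where they ran from 0.109 to 0.203.

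Selective autophagy receptors held 7 listed genes of 19, with 5 higher and 2 lower and a median of 0.36. OPTN, like SQSTM1 a receptor for ubiquitinated cargo, stood at 8.23 FPKM with ebastine and 4.44 FPKM with vehicle, a log2 ratio of 0.76 beside 0.77 for SQSTM1. The glycogen receptor STBD1 had a log2 ratio of 0.57, the endoplasmic reticulum receptor FAM134B 0.36 and TOLLIP 0.32. The 2 lower genes are receptors for mitochondria. BNIP3 stood at 328 FPKM with ebastine and 594 FPKM with vehicle, a log2 ratio of -0.86, the lowest of the 59 genes. BNIP3L had a ratio of -0.32 and lay at 0.02 after centring, on the other side of 0. Both are also known as genes induced by hypoxia. BNIP3 made up most of the summed level of the 7 genes, which was 566 FPKM with ebastine and 782 FPKM with vehicle.

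Of 25 genes for the MiT/TFE factors, folliculin and the mTORC1 machinery at the lysosome, 4 were listed and all were higher. None of the 4 factors themselves was in the table. RRAGD, a small GTPase that recruits mTORC1 and is a known MiT/TFE target, stood at 5.66 FPKM with ebastine and 3.65 FPKM with vehicle. FLCN, which encodes folliculin, had a log2 ratio of 0.37, RRAGB 0.34 and LAMTOR5 0.30. In the authors' deposited table RRAGD had a q-value of 0.00595 and the other 3 were above 0.05.

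SQSTM1 is also a known target of the oxidative stress factor NFE2L2 and binds its inhibitor KEAP1, so that pathway was counted on its own. Of its 12 genes 6 were in the table, 3 of them higher and 3 lower, beside 43% higher and 57% lower among all 1768. Their median was 0.02, against -0.32 over all 1768 genes. At least 1.5-fold higher were 2 of the 6 (33.3%) and none was at least 1.5-fold lower, beside 9.67% and 18.6% of all 1768. The part of this pathway in the SQSTM1 difference was not tested. The NADPH-producing malic enzyme ME1 was higher, at a log2 ratio of 0.67, and the quinone reductase NQO1 had a ratio of 0.41. The heme oxygenase HMOX1, the cystine transporter SLC7A11 and the glutathione synthesis enzyme GCLC had ratios of -0.48, -0.40 and -0.36. SQSTM1 at 0.77 lay above all 6 of them.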

How the data were processed

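Polyadenylated RNA of 1 ebastine and 1 vehicle library was compared. Per the submitters' processing notes, TopHat2, Cuffdiff and hg19 were used; the gene models, strand setting and scaling are not given in the sources. The deposited table holds FPKM values per gene, which the authors' Cuffdiff estimated and scaled, with the authors' log2 fold change, test statistic (a score, not used) and p-value and q-value. The authors' p-values compare these 2 libraries, not the conditions. The deposited p-values ended at 0.0499, so every listed gene had passed that filter, and nothing is known of genes outside the table.

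Ratios were log2((ebastine + 1)/(vehicle + 1)), computed with Python 3.11.15, numpy and pandas, counted over genes averaging 1 FPKM or more and called at 1.5-fold. No error can be given for any call. The file gives no counts, so depth is unknown and no counting interval can be given. Locus starts count from 0 and were converted. Alternatives changed the pseudocount, the minimum mean, the scaling and the authors' q-value limit. Named genes were the 6 members, listed genes of the lists (for lists over 8, the 5 highest and 3 lowest ratios) and the 2 genes nearest each member. The members and lists were chosen with earlier results of these data known. Promoter sequences are from RefSeq (GRCh38.p14), and none of its coordinates were mixed with hg19 ones. A few genes that these rules would name are not reported here.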

Additional observations from a re-analysis of the deposited data

How the results depend on the processing

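With 1 library per group no library could be left out, and every value depends on both. No paired analysis was possible because each group held 1 library. The log2 ratios of the 6 genes kept their direction and their side of 1.5-fold in the other settings tried. These were pseudocounts of 0.1 and 5 FPKM, equal sums, upper quartile rescaling and centring on the median. Each of these scalings raises every ratio, so only the larger pseudocount could have taken the higher genes below the limit. GPNMB ran from 1.90 to 3.03, and ATG9B from -0.48 to -0.10. NPC1 came nearest to the limit, at 0.61 with a pseudocount of 5 FPKM. The count of 12 lysosome and autophagy genes at least 1.5-fold higher became 7 with a pseudocount of 5 FPKM, 33 after upper quartile rescaling and 53 after centring. The count of 3 at least 1.5-fold lower became 1, 1 and 0 under the same settings. A larger pseudocount shrinks all ratios, and both rescalings raise the ratio of every gene. Upper quartile rescaling multiplies every ebastine value by 1.15. Centring adds 0.34 to every log2 ratio, which is a factor of 1.26 before the logarithm. The other settings left these counts within 1.5 times. The q-value limit left all 12 and all 3. Depth is unknown and limits what can be said of low genes.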
